A study of Dugesia japonica with 12 samples.

Results

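The comparison described here set whole worms after 1 day in 64 mg per L glyphosate against unexposed worms, with 3 libraries in each group, that is 6 of the 12 libraries of a series that also followed the worms to days 3 and 5. All worms belonged to 1 clonal laboratory strain (Dj-NH) of the freshwater planarian Dugesia japonica, a free-living flatworm, and were bred asexually, so every group shared this genotype. The groups were the control (untreated) and glyphosate for 1 day, with the dose given in the labels as 1/2 of the LC50. Polyadenylated RNA of whole worms was measured, and the labels give neither the sampling day of the unexposed worms nor how many worms went into a library. Values are in TPM, a length-corrected abundance with the same total in every library that keeps no sequencing depth, so the depth behind each value is unknown. A gene was tested where it reached at least 1 TPM in at least 3 of the 12 libraries, which held for 27329 of the 30535 listed genes. Each gene is an assembled transcript group, named here by the identifier of the assembly and by its annotation hit. A hit is a similarity to a known protein, and it does not identify the organism that made the RNA. The labels do not say whether libraries of 1 group are separate cultures, so a p-value reflects only the spread among these libraries, which may be technical.

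Glyphosate blocks EPSP synthase, an enzyme of the shikimate pathway by which plants and many microbes make aromatic amino acids, and which animals lack. Cells under chemical stress commonly raise chaperones, detoxifying enzymes and protein degradation, and small heat shock proteins are chaperones that hold unfolding proteins without using ATP. Planarians renew all their tissues from dividing stem cells called neoblasts, so genes of DNA replication and of RNA-binding germ granules report on these cells, and gland cells secrete proteases and mucus.

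The libraries differed in ways the groups did not explain. Control replicate 1 and day 1 replicate 2 had 23164 and 23249 genes at 1 TPM or more, and the other 4 libraries had 20006 to 20500. The group means of this number were 21300 ± 1640 and 21100 ± 1850 (exact two-sided permutation test, p = 0.6, where 0.1 is the smallest p that 3 against 3 libraries allow). A single transcript without a hit held 38.5 ± 7.31% of all TPM in control and 39.3 ± 5.87% at day 1 (SD, n = 3, as for every ± value that follows). Beta-actin, used as a check that the libraries hold planarian RNA, stood at 2690 ± 297 TPM in control and 2500 ± 377 TPM at day 1 (TRINITY_DN36831_c0_g3). Across genes, which are not independent replicates, Pearson's r of log2 values was 0.914 to 0.936 within control, 0.930 to 0.942 within day 1 and 0.893 to 0.932 between the groups. Control replicate 2 lay near the day 1 libraries for a set of genes, mostly without a hit, whose values follow after the gene lists.

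After 1 day 36 genes differed from control, 23 higher and 13 lower, which is 0.132% of the tested genes (0.0842% higher and 0.0476% lower). The call was an adjusted p under 0.05 from limma, a linear model with a spread shared across genes, fitted to log2(TPM + 1) over all 12 libraries with Benjamini-Hochberg adjustment over all 27329 genes. Fold changes are on this scale and come out too small for low genes. The control and day 1 values did not overlap for any of the 36. Over all genes the values of the groups did not overlap for 3651 genes or 13.4%, 1545 higher (5.65%) and 2106 lower (7.71%), and 2414 genes (8.83%) had an unadjusted p under 0.05, 1101 higher (4.03%) and 1313 lower (4.8%). Called changes ran from -2.64 to -1.13 and from 1.10 to 2.67. The count rested on single libraries. Leaving out control replicate 1, 2 or 3 gave 15, 89 or 20 called genes, and leaving out day 1 replicate 1, 2 or 3 gave 16, 15 or 23. Libraries of the later days bear on the common spread, and the count was 57 when day 3 replicate 2 was left out and 22 when day 5 replicate 3 was. It was 8 with neither library of highest median, a setting chosen after seeing the data. Over 24 alternative settings, which change the scaling, filter, pseudocount or model or leave out libraries, 6 genes kept the call wherever they had a value. These were both small heat shock genes, the cathepsin L TRINITY_DN2937_c0_g1, and TRINITY_DN32799_c3_g1, TRINITY_DN24863_c0_g1 and TRINITY_DN32818_c0_g3, without a hit. The other 30 lost it in 1 to 16 alternatives, and none reversed.

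**Figure D1:**
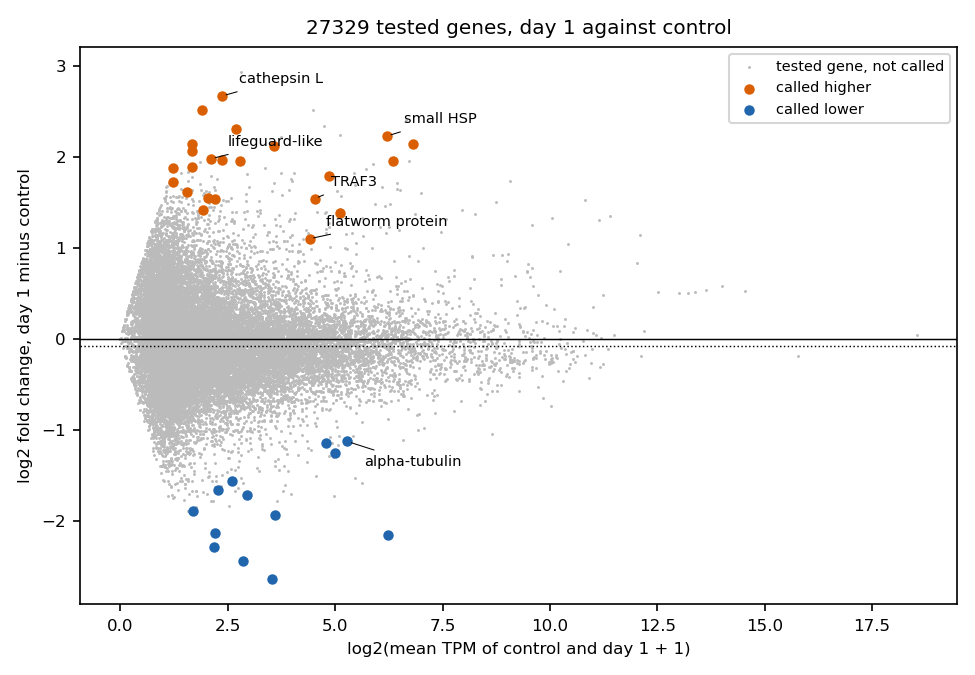
Log2 fold change between day 1 and control (vertical axis) against the mean level on a log2 scale (horizontal axis), 1 point for each of the 27329 tested genes, with the 23 genes called higher in orange and the 13 called lower in blue; the dotted line is the median of all genes at -0.08. The axis uses the mean of control and day 1. By the mean over all 12 libraries, 13 of the 23 higher and 7 of the 13 lower genes had at least 5 TPM. Of the 27329 tested genes 7993 did. By the same mean, only the small heat shock genes were called above 100 TPM.

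The called genes were near all tested genes in how many had a hit. Among the 23 higher genes 15 (65.2%) had no annotation hit and 3 had a flatworm hit, against 56.5% without a hit among all tested genes. Among the 13 lower genes 7 (53.8%) had no hit and 0 had a flatworm hit. Median lengths were 413 bases for the higher and 401 bases for the lower genes, against 488 bases over all tested genes. Of the higher genes 9 had a control mean under 1 TPM. Day 1 replicate 3 was the lowest of the day 1 libraries for 18 of the 23 higher genes and for 7 of the 13 lower genes. Its median over all tested genes was also the lowest of these libraries, at 2.01 TPM against 2.1 and 2.75 TPM.

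**Figure D2:**
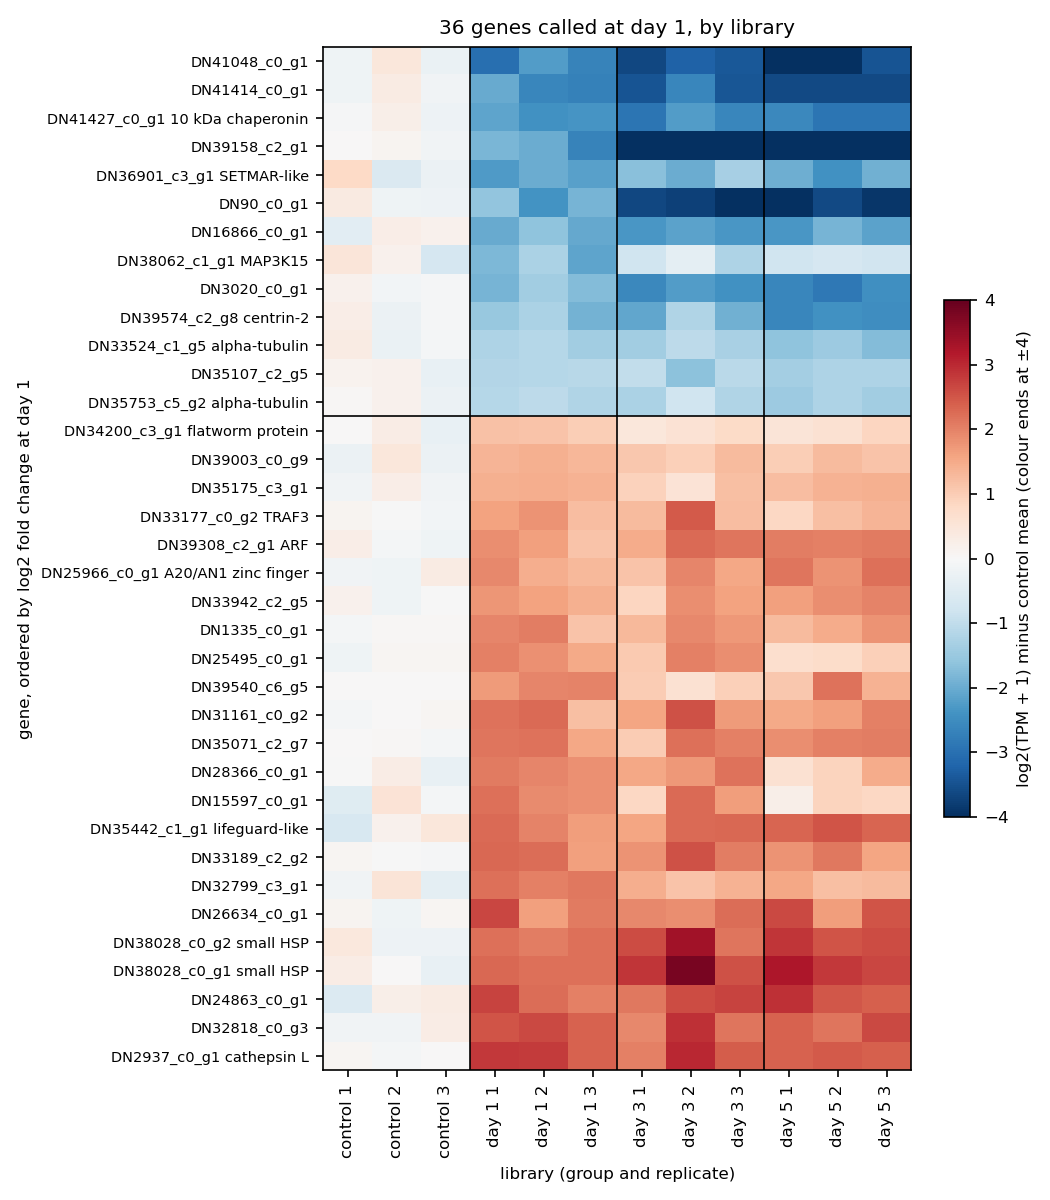
Each row is 1 of the 36 genes called at day 1 and each column 1 of the 12 libraries; the colour is log2(TPM + 1) minus the control mean, and rows are ordered by the change at day 1. The 3 day 1 columns are blue in all 13 upper rows and red in all 23 lower rows, while the control columns stay pale.

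Small heat shock transcripts were the most abundant called genes by the mean over the 12 libraries, which includes days 3 and 5. TRINITY_DN38028_c0_g1, whose hit is a small HSP protein of Dugesia japonica itself, stood at 30.7, 25.1 and 20.4 TPM in the 3 control libraries and at 126, 118 and 119.8 TPM in the 3 day 1 libraries. The lowest day 1 library was far above the highest control library, and the day 1 libraries were close to each other. The gene rose from 25.4 ± 5.15 to 121 ± 4.23 TPM (log2 fold change 2.23, SE 0.27, limma adjusted p = 0.0018). TRINITY_DN38028_c0_g2, with the same hit, stood at 54.1, 35.3 and 34.8 TPM in control and at 189.8, 169 and 188 TPM at day 1, again without overlap. It rose from 41.4 ± 11 to 182 ± 11.3 TPM (log2 fold change 2.14, SE 0.26, limma adjusted p = 0.0018). Both share an assembly cluster, so reads may have been split between them. Their summed TPM was 84.8, 60.5 and 55.3 in control and 316, 287 and 308 at day 1, a difference of 2.19 on the log2 scale (exact permutation p = 0.1, the smallest possible). Among all genes with a mean of at least 100 TPM over the 12 libraries, TRINITY_DN38028_c0_g1 had the largest rise.

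The remaining 4 members of the small heat shock list were low and did not pass the test. TRINITY_DN27750_c0_g1, with a hit to Hsp-16 of Caenorhabditis elegans, stood at 8.47, 3.34 and 1.36 TPM in control and 0.81, 1.45 and 1.62 TPM at day 1 (log2 fold change -1.02, limma adjusted p = 0.587). TRINITY_DN23519_c0_g1, also like Hsp-16, had a log2 fold change of -0.48, and the 2 genes with hsp20 hits had -0.19 (TRINITY_DN29765_c0_g2) and -0.14 (TRINITY_DN35972_c0_g1). Of the 6 listed genes 2 were thus called higher and 0 lower, and the median of the list was -0.17 against -0.08 over all genes. With 6 members this median turned with the settings, from -0.30 to 2.14, the latter at a minimum of 5 TPM.

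No larger chaperone passed the test as higher at day 1. Of 95 tested genes for HSP70, HSP90, DnaJ proteins and chaperonins 0 were called higher and 1 lower, with a median of -0.19. The most abundant, an HSP70 (TRINITY_DN36275_c0_g1), stood at 521, 343 and 341 TPM in control and 398, 439 and 336 TPM at day 1, with overlapping groups (log2 fold change -0.02, SE 0.23). Subunit delta of the T complex, the chaperonin that folds actin and tubulin, stood at 83.5, 60.7 and 65.9 TPM and 46, 54.1 and 41.8 TPM without overlap (TRINITY_DN36158_c3_g1, limma adjusted p = 0.437). The called member was a 10 kDa chaperonin, the partner of the barrel-shaped HSP60 in mitochondria and bacteria. TRINITY_DN41427_c0_g1 fell from 6.33, 7.92 and 5.49 TPM to 0.75, 0.39 and 0.48 TPM (log2 fold change -2.29, SE 0.31, limma adjusted p = 0.00387). Its annotation hit was a mite protein and its Swiss-Prot hit a bacterial one, and its transcript was 271 bases long. With a pseudocount of 0.1 or a minimum of 5 TPM it was no longer called (limma adjusted p up to 0.234).

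Among higher genes with a named hit, a cathepsin L, a lysosomal cysteine protease, had the largest change. TRINITY_DN2937_c0_g1 stood at 0.46, 0.32 and 0.4 TPM in control and at 8.97, 8.7 and 6.17 TPM at day 1, so it was near 0 in all control libraries and present in all day 1 libraries (log2 fold change 2.67, SE 0.26, limma adjusted p = 0.000586). Its annotation hit was a crustacean protein and its Swiss-Prot hit a ciliate one. A lifeguard-like gene, of a family of membrane proteins that inhibit cell death in vertebrates, stood at 0.12, 0.96 and 1.35 TPM in control and at 7.27, 5.83 and 4.55 TPM at day 1 (TRINITY_DN35442_c1_g1). It rose by 1.98 on the log2 scale (SE 0.30, limma adjusted p = 0.00925), with no overlap between the groups. Its call was lost in 5 of 23 alternatives, among them leaving out control replicate 1 or day 1 replicate 1 or 2 (limma adjusted p up to 0.218).

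Signalling and vesicle genes followed. TNF receptor-associated factor 3, an adaptor of cytokine receptor signalling in mammals, stood at 11.6, 10.5 and 9.79 TPM in control and at 34.1, 39.4 and 26.3 TPM at day 1 (TRINITY_DN33177_c0_g2, log2 fold change 1.54, SE 0.28, limma adjusted p = 0.0443). Every day 1 library lay above the highest control library. ADP-ribosylation factor, a small GTPase that starts the budding of transport vesicles, stood at 1.76, 1.2 and 1.04 TPM in control and at 7.31, 6.28 and 4.06 TPM at day 1 (TRINITY_DN39308_c2_g1, Swiss-Prot hit from rice, log2 fold change 1.54, SE 0.26, limma adjusted p = 0.0269). A gene whose Swiss-Prot hit was an A20 and AN1 zinc finger protein of Arabidopsis, of a family known there as stress-associated proteins, stood at 0.86, 0.81 and 1.6 TPM in control and at 6.75, 4.63 and 4.08 TPM at day 1 (TRINITY_DN25966_c0_g1, log2 fold change 1.55, SE 0.27, limma adjusted p = 0.0346). Its annotation hit was an unnamed tardigrade protein. The third called gene with a flatworm hit, an unnamed tapeworm protein, went from 12.4, 15.4 and 9.87 TPM in control to 29.2, 28.5 and 25.5 TPM at day 1 (TRINITY_DN34200_c3_g1, log2 fold change 1.10, SE 0.20, limma adjusted p = 0.0426). All 4 calls hung on single libraries. That of TRAF3 was lost in 12 of 23 alternatives, without any one of the control, day 1 or day 5 libraries among them (limma adjusted p up to 0.428), and that of the zinc finger gene in 14, with the same libraries (up to 0.379). That of ADP-ribosylation factor was lost in 10, among them without control replicate 1 or 3, day 1 replicate 1 or 2, or day 5 replicate 2 or 3 (up to 0.264). The tapeworm-like gene lost its call in 15 of 24, among them without control replicate 1 or 3, any day 1 or day 5 library, or day 3 replicate 3 (up to 0.401).

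Among higher genes without any hit, TRINITY_DN28366_c0_g1 was the most abundant. It stood at 31.9, 40.2 and 26.4 TPM in control and at 139, 129 and 118 TPM at day 1 (log2 fold change 1.96, SE 0.24, limma adjusted p = 0.0018). TRINITY_DN25495_c0_g1 stood at 10.5, 12.5 and 12.5 TPM in control and at 51, 44.5 and 35.9 TPM at day 1 (log2 fold change 1.79). In both the lowest day 1 library lay above all control libraries by more than the whole range of the control. TRINITY_DN39003_c0_g9 went from 15.4, 25.4 and 15.4 TPM to 48.9, 50.3 and 47.8 TPM (log2 fold change 1.38), and TRINITY_DN32799_c3_g1 from 3.1, 5.37 and 2.45 TPM to 19.7, 17.2 and 18.4 TPM (log2 fold change 2.12). Here control replicate 2 was the highest control library in both genes, and still below every day 1 library. TRINITY_DN35071_c2_g7 went from 1.82, 1.86 and 1.66 TPM to 11.2, 11.5 and 7.18 TPM (log2 fold change 1.96), and TRINITY_DN24863_c0_g1 from 0.45, 1.5 and 1.64 TPM to 12.7, 9.09 and 7.53 TPM (log2 fold change 2.31). The other 9 higher genes had no hit and a mean under 5 TPM over the 12 libraries, with single control values of 0 to 2.02 TPM and single day 1 values of 1.34 to 8.53 TPM. One of these 9, TRINITY_DN39540_c6_g5, was listed at 0 in all 3 control libraries and at 2.24, 2.85 and 2.99 TPM at day 1, so no fold is given for it. Among the genes given by library, the call of TRINITY_DN39003_c0_g9 was lost in 7 of 23 alternatives, among them without control replicate 1 or 3 or day 1 replicate 1 or 2 (limma adjusted p up to 0.278). That of TRINITY_DN35071_c2_g7 was lost without day 1 replicate 1 or 2 (up to 0.262).

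Lower genes were led by transcripts without a hit as well. TRINITY_DN39158_c2_g1, the most abundant of them, fell from 123, 129.5 and 110.2 TPM in control to 33.5, 29.7 and 18.1 TPM at day 1 (log2 fold change -2.16, SE 0.28, limma adjusted p = 0.00297). Its 3 control libraries lay above the day 1 libraries by more than the range of either group. TRINITY_DN41048_c0_g1 fell from 16.2, 25.2 and 15.1 TPM to 1.39, 3.1 and 2.05 TPM, the largest fall of all tested genes (log2 fold change -2.64, SE 0.31, limma adjusted p = 0.0018). TRINITY_DN90_c0_g1 fell from 23.5, 16 and 15.4 TPM to 5.39, 2.59 and 4.23 TPM (log2 fold change -1.94). TRINITY_DN35107_c2_g5 fell from 40.6, 41.6 and 30.02 TPM to 15.8, 16.3 and 16.4 TPM (log2 fold change -1.15), and here too all control libraries were above all day 1 libraries. The other 3 lower genes without a hit had single control values of 2.76 to 14.1 TPM, single day 1 values of 0.21 to 2.02 TPM and log2 fold changes of -2.44 to -1.66. The calls of TRINITY_DN41048_c0_g1 and TRINITY_DN39158_c2_g1 held without any single library and were lost with a pseudocount of 0.1 (limma adjusted p = 0.15 and 0.0802). That of TRINITY_DN90_c0_g1 was lost without control replicate 1 or day 1 replicate 2 (up to 0.325), and that of TRINITY_DN35107_c2_g5 in 16 of 23 alternatives, among them without any one of the control, day 1 or day 5 libraries (up to 0.428).

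Of the 13 lower genes 6 had a hit, the chaperonin above and 5 more. An alpha-tubulin, a building block of microtubules, fell from 55, 36.1 and 40.8 TPM in control to 17.8, 19.1 and 15.8 TPM at day 1 (TRINITY_DN33524_c1_g5, log2 fold change -1.26, SE 0.20, limma adjusted p = 0.0173). Another alpha-tubulin fell from 54.1, 59.2 and 44.9 TPM to 23, 24.6 and 22.4 TPM (TRINITY_DN35753_c5_g2, log2 fold change -1.13, SE 0.19, limma adjusted p = 0.0257). In both the day 1 libraries were nearly equal to each other, and as members of a multigene family both may share reads with near-identical copies. Centrin-2, a calcium-binding protein of centrioles and of the basal bodies of cilia, fell from 9.65, 6.63 and 7.65 TPM to 2.12, 2.66 and 1.42 TPM (TRINITY_DN39574_c2_g8, Swiss-Prot hit from Arabidopsis, log2 fold change -1.56, limma adjusted p = 0.0436). MAP kinase kinase kinase 15, an upstream kinase of stress signalling in mammals, fell from 14.9, 11.7 and 6.1 TPM to 2.27, 3.7 and 1.61 TPM (TRINITY_DN38062_c1_g1, log2 fold change -1.72, limma adjusted p = 0.0443). A SETMAR-like gene, in humans a fusion of a histone methyltransferase with a mariner transposase, fell from 11.2, 3.73 and 4.92 TPM to 0.46, 0.76 and 0.57 TPM (TRINITY_DN36901_c3_g1, log2 fold change -2.14, limma adjusted p = 0.0204), with control replicate 1 well above the other control libraries. All 5 of these calls were lost without day 1 replicate 1, 2 or 3, with limma adjusted p up to 0.268 for the first alpha-tubulin, 0.294 for the second, 0.377 for centrin-2, 0.271 for the kinase and 0.278 for the SETMAR-like gene over all alternatives. Without control replicate 1 they were lost as well.

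Called genes often shared an assembly cluster with other listed genes, among which reads may be split. This held for 17 clusters, and 18 called genes were alone in theirs. The summed TPM of the cluster did not overlap between the groups in 9 of the 17. In 2 clusters with a gene called higher the sum lay lower at day 1, at 559 ± 37.3 and 516 ± 68.5 TPM for that of TRINITY_DN33189_c2_g2 and 221 ± 74.4 and 148 ± 21.6 TPM for that of TRINITY_DN35175_c3_g1. For that of TRINITY_DN32818_c0_g3 the sums overlapped, at 13.1 ± 2.14 and 17.5 ± 5.37 TPM. For the cluster of TRAF3 the sum went from 13.5 ± 0.834 to 38.3 ± 7.65 TPM, and for that of TRINITY_DN28366_c0_g1 from 37.3 ± 7.15 to 133 ± 10.9 TPM. For that of TRINITY_DN32799_c3_g1 it was 38.8 ± 9.86 TPM in control and 45.9 ± 11.2 TPM at day 1 (exact permutation p = 0.5), and the groups overlapped. The cluster of the alpha-tubulin TRINITY_DN33524_c1_g5 summed to 1703, 823 and 952 TPM in control and 758, 843 and 638 TPM at day 1, which overlap (exact permutation p = 0.2). For the other alpha-tubulin, TRINITY_DN35753_c5_g2, the sums of the cluster also overlapped (152 ± 28.1 and 110 ± 16.2 TPM).

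Levels of the called genes at days 3 and 5 are given beside those of day 1 as values, since all 3 comparisons share the control libraries. The small heat shock gene TRINITY_DN38028_c0_g1 stood at 234 ± 111 TPM at day 3 and 198 ± 42.8 TPM at day 5, and TRINITY_DN38028_c0_g2 at 286 ± 125 and 262 ± 33.7 TPM. The unnamed TRINITY_DN39158_c2_g1 went on to 1.72 ± 0.325 and 0.883 ± 0.746 TPM, so its mean was lower at each later time. TRINITY_DN28366_c0_g1 stood at 120 ± 27.7 TPM at day 3 and 67.4 ± 21.8 TPM at day 5, the latter lower than at day 1. TRAF3 (TRINITY_DN33177_c0_g2) stood at 38.6 ± 20.4 and 24.8 ± 4.55 TPM, with 1 high library at day 3. The alpha-tubulin TRINITY_DN35753_c5_g2 stood at 24.5 ± 4.6 and 19.8 ± 1.71 TPM, close to its day 1 level. The kinase TRINITY_DN38062_c1_g1 had means of 5.62 ± 1.92 and 5.79 ± 0.299 TPM, between those of control and day 1.

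**Figure D3:**
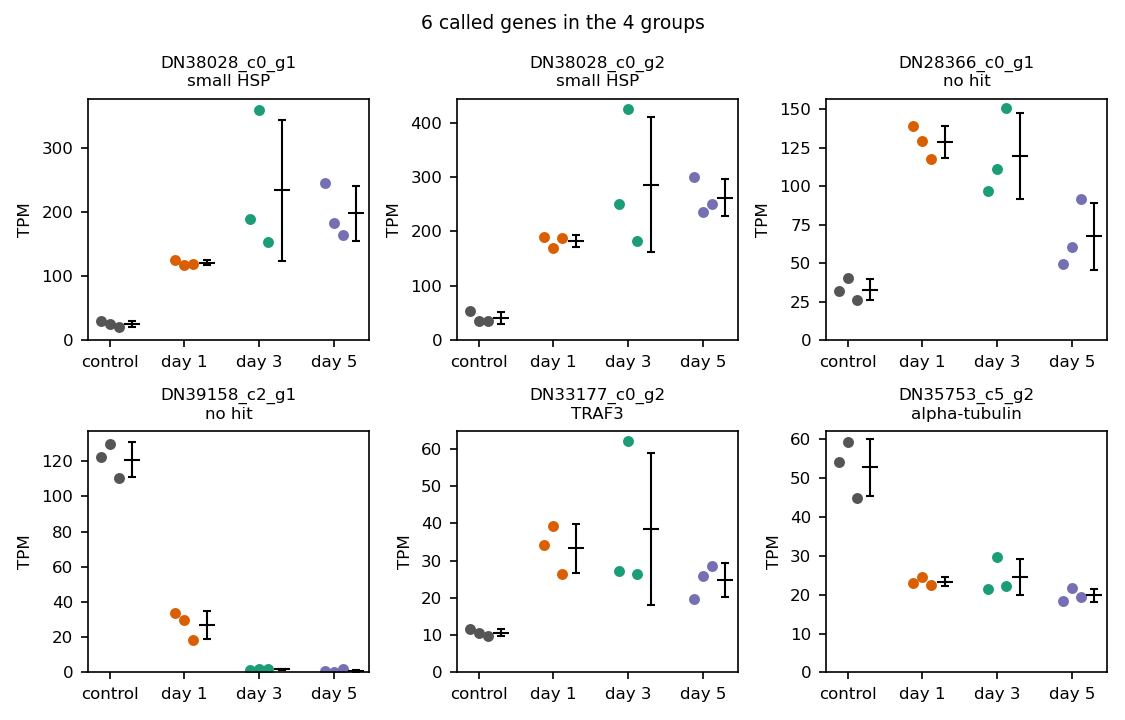
TPM (vertical axis, from 0) of 6 called genes in the 3 libraries of control, day 1, day 3 and day 5; points are libraries and black bars are the mean ± SD. At day 1 the small heat shock genes lie between 118 and 189.8 TPM in every library against at most 54.1 TPM in control, and the unnamed DN39158_c2_g1 lies below 34 TPM against at least 110 TPM in control.

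Most genes gave no detectable change. The 95% interval of the log2 fold change lay within 1 on either side of 0 for 12975 genes or 47.5%. This share was 24.2% among genes with a mean under 2 TPM and 81.8% among the 639 genes of 100 TPM or more, so the low genes were measured much less precisely. Levels of a few abundant genes show the size of the spread. GAPDH, a glycolytic enzyme, had 2010 ± 336 TPM in control and 2090 ± 234 TPM at day 1 (TRINITY_DN34730_c1_g1, log2 fold change 0.06, SE 0.20). Elongation factor 1-alpha, which brings tRNAs to the ribosome, had 2120 ± 496 and 1940 ± 184 TPM (TRINITY_DN35464_c1_g2, log2 fold change -0.11, SE 0.24). Among genes of at least 100 TPM the largest fall in value was that of TRINITY_DN34179_c0_g1, without a hit, with 451, 891 and 294 TPM in control and 382, 157 and 221 TPM at day 1, which overlap (log2 fold change -1.05, limma adjusted p = 0.5).

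Across annotated functions, 43 gene lists drawn from the hit names covered 4768 tested genes, of which 12 were called. In 33 lists 0 members were called (limma). As 0.132% of all tested genes were called, 0 calls in a list of this size say nothing about the list. Counts at an unadjusted p under 0.05 are to be read against 4.03% higher and 4.8% lower over all genes, and 8.83% in all. Medians were below 0 in 40 lists and above 0 in 2, and in 21 lists the sign differed between alternative settings. They are read beside -0.08 over all genes, -0.13 over genes with a flatworm hit and 0.00 over genes without a hit. Shares of values below 0 are read beside 57.9% of all tested genes, 67.8% of genes with a hit and 69.5% of those with a flatworm hit. Scaling by median ratios moved the median of all genes to 0.02, so list medians are also given minus that of all genes. Each list is described by its counts and its median, with values for members chosen by level or by size of difference. Those chosen by size of difference had to have a mean of at least 5 TPM, an unadjusted p under 0.05 and groups without overlap. For them the lack of overlap, given below with their values, is a condition of the choice and no result.

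**Figure D4:**
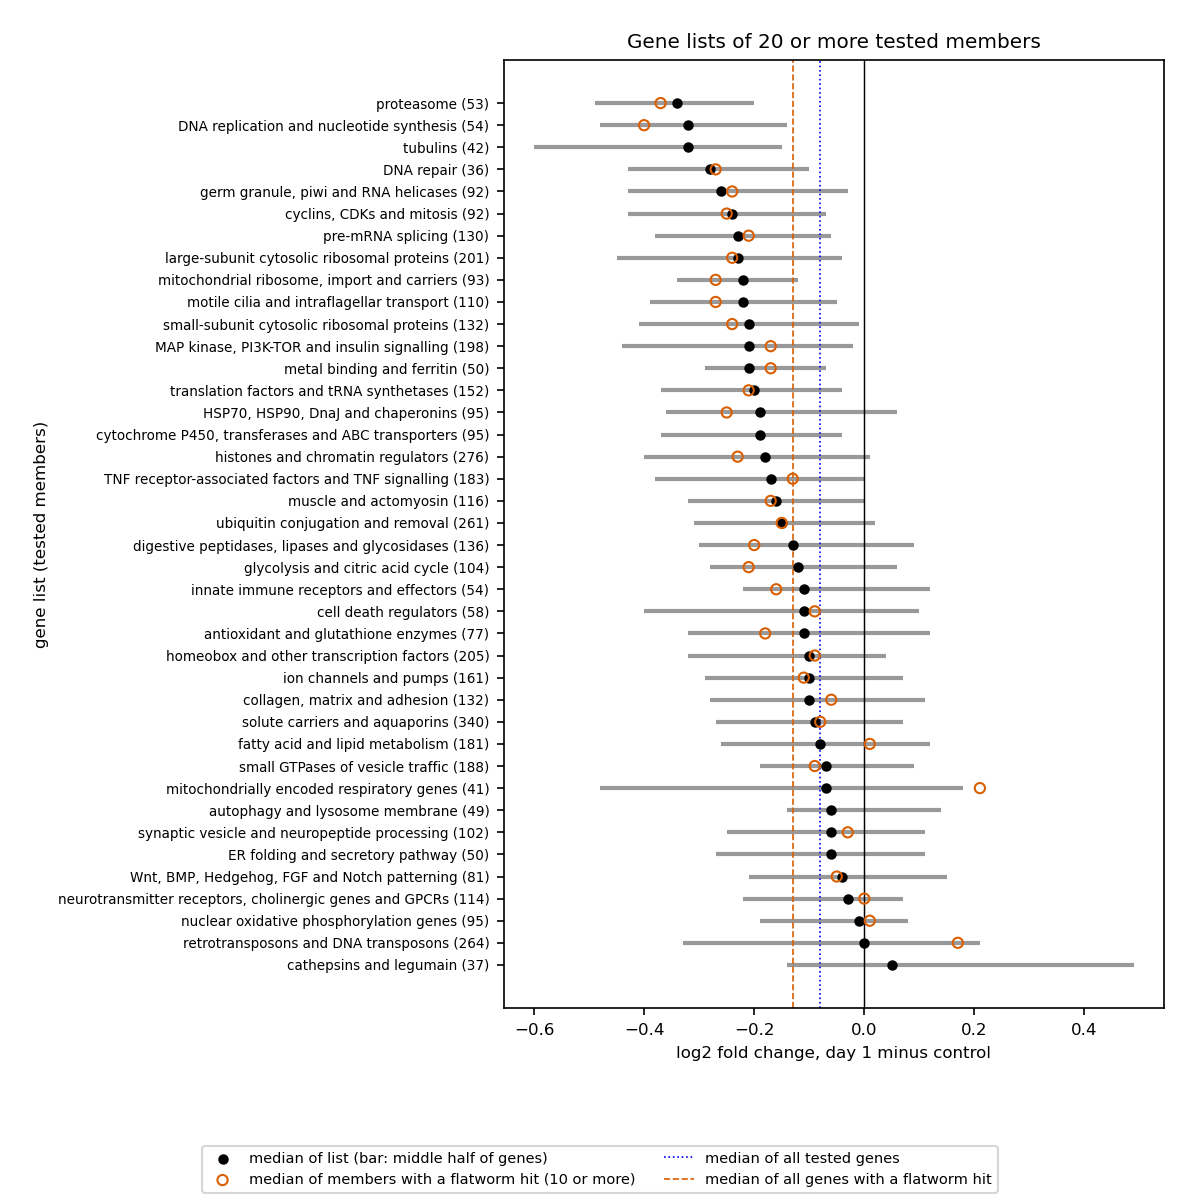
Median log2 fold change between day 1 and control (horizontal axis) of every gene list with 20 or more tested members, with the number of members beside its name; grey bars span the interquartile range of the members, open circles are the medians of members with a flatworm hit. Medians run from -0.34 for the proteasome to 0.05 for cathepsins and legumain, with the median of all genes at -0.08 (dotted) and of flatworm-hit genes at -0.13 (dashed).

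Proteasome genes, which encode the barrel that degrades ubiquitin-tagged proteins and its regulatory cap, had the lowest median of the 43 lists. Of 53 tested members 92.5% had values below 0, against 57.9% of all tested genes and 69.5% of those with a flatworm hit. In this list 0 were called and 6 (11.3%) had an unadjusted p under 0.05, all of them lower and with flatworm hits. The median was -0.34 (-0.26 relative to all genes) and -0.37 over the 29 members with a flatworm hit. It ran from -0.40 to -0.21 over the alternative settings. The 26S regulatory subunit 6A stood at 20.4, 13.9 and 13.9 TPM in control and 8.76, 11.8 and 8.61 TPM at day 1 (TRINITY_DN38365_c3_g1, log2 fold change -0.66, limma adjusted p = 0.49). Subunit alpha type-5, chosen after its values were seen, stood at 118, 117 and 99.5 TPM and 74, 88.3 and 72.9 TPM (TRINITY_DN34971_c0_g1, limma adjusted p = 0.411), without overlap between the groups. The most abundant member, subunit beta type-4, stood at 146, 146 and 119 TPM and 138, 138 and 115 TPM (TRINITY_DN34143_c0_g1), which overlap. Ubiquitin conjugation and removal, the step before the proteasome, had a median of -0.15 over 261 members with 0 called. Its polyubiquitin-A (TRINITY_DN36439_c1_g1) stood at 2140 ± 383 TPM in control and 2180 ± 281 TPM at day 1 (log2 fold change 0.04). Another gene of this list, like polyubiquitin-B, stood at 11.7, 11 and 9.66 TPM and 32.6, 28.2 and 15.2 TPM without overlap (TRINITY_DN35839_c0_g1, log2 fold change 1.10, limma adjusted p = 0.161).

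Genes of DNA replication and nucleotide synthesis had a median of -0.32 over 54 members (-0.24 relative to all genes, -0.40 over 26 flatworm-hit members), 87.0% of values below 0 and 0 called. It ran from -0.43 to -0.22 over the alternative settings. In 9 members (16.7%) the unadjusted p was under 0.05, and all 9 were lower. Replication protein A of 70 kDa, which coats single-stranded DNA, stood at 14.8, 10.4 and 9.74 TPM in control and 4.88, 6.2 and 4.46 TPM at day 1 (TRINITY_DN32916_c1_g2, log2 fold change -1.02, SE 0.28, limma adjusted p = 0.252). Ribonucleotide reductase makes the building blocks of DNA, and 2 genes with hits to it, chosen after their values were seen, are given here. TRINITY_DN33815_c0_g1 stood at 29.1, 20.04 and 22.9 TPM and 11.9, 13.6 and 11.1 TPM (log2 fold change -0.91, limma adjusted p = 0.14). TRINITY_DN35213_c3_g1 stood at 32.2, 30.7 and 28.1 TPM and 18.6, 20.3 and 17 TPM (log2 fold change -0.68, limma adjusted p = 0.28). In both all control libraries were above all day 1 libraries. PCNA, the sliding clamp of DNA polymerase and likewise chosen after its values were seen, stood at 54.9, 30.9 and 34.2 TPM and 27.1, 29.9 and 18.9 TPM (TRINITY_DN28542_c0_g1, limma adjusted p = 0.512). With 0 members called, a fall of single genes was not shown. In these bulk samples fewer dividing cells and less RNA per cell could not be told apart in any case.

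Other lists of dividing cells lay lower as well, with 0 members called in each. The medians were -0.24 for 92 genes of cyclins, CDKs and mitosis, -0.28 for 36 DNA repair genes and -0.26 for 92 germ granule, piwi and RNA helicase genes. Over the alternative settings they ran from -0.34 to -0.07, from -0.41 to -0.13 and from -0.37 to -0.09, while the median of all genes ran from -0.18 to 0.02. That of DNA repair was -0.13 without control replicate 1. A regulatory subunit of cyclin-dependent kinases stood at 13.1, 17.7 and 13 TPM in control and 6.55, 10.1 and 8.68 TPM at day 1 (TRINITY_DN12668_c0_g1, limma adjusted p = 0.297). A kinase of this list, with hits to unc-51 and to Cdc15, lay the other way at 10.8, 9.68 and 6.98 TPM and 20.2, 25.1 and 12.6 TPM (TRINITY_DN35609_c0_g1, limma adjusted p = 0.243). Both were without overlap between the groups. The vasa-like helicase PlVAS1, a germ granule gene of planarian stem cells, stood at 34.1, 22.4 and 25.6 TPM and 18.1, 19.3 and 15.8 TPM (TRINITY_DN36627_c0_g1, limma adjusted p = 0.466). Rad6, a ubiquitin-conjugating enzyme of DNA repair, stood at 34.3, 40.2 and 29.6 TPM and 34, 32.6 and 24.7 TPM (TRINITY_DN39328_c2_g2), which overlap. Histones and chromatin regulators had a median of -0.18 over 276 members, with 1 called, the SETMAR-like gene above. That gene was listed by the name of its hit, a partial protein. Whether it resembles the methyltransferase or the transposase part was not tested. At an unadjusted p under 0.05 the list had 5 higher (1.81%) and 28 lower (10.1%) members. A histone H4 with a ciliate Swiss-Prot hit, part of the core around which DNA winds, stood at 26.1, 20.2 and 24.9 TPM in control and 9.9, 9.96 and 7.67 TPM at day 1 (TRINITY_DN32064_c2_g6, log2 fold change -1.28, SE 0.28, limma adjusted p = 0.107). A histone H3.3, also with a ciliate Swiss-Prot hit, stood at 5.72, 5.14 and 7.24 TPM and 15.2, 10.5 and 8.22 TPM (TRINITY_DN31824_c4_g1, limma adjusted p = 0.341). The groups did not overlap for either, and the organism that made these RNAs was not tested.

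The machinery from RNA to protein had medians below 0 in every list, again with 0 called. Medians were -0.23 for 130 splicing genes, -0.23 for 201 and -0.21 for 132 cytosolic ribosomal proteins of the large and small subunit, -0.20 for 152 translation factors and tRNA synthetases and -0.22 for 93 genes of the mitochondrial ribosome, import and carriers. A ribonucleoprotein like hnRNP A/B, which binds pre-mRNA, stood at 194, 137 and 151 TPM in control and 72.8, 95.7 and 70.6 TPM at day 1 (TRINITY_DN35573_c1_g4, log2 fold change -1.0, SE 0.20, limma adjusted p = 0.0806). All its control libraries were above all day 1 libraries, though it missed the threshold. In the opposite direction, cysteine-tRNA ligase stood at 287, 468 and 337 TPM and 539.9, 817 and 622 TPM (TRINITY_DN34631_c0_g2, log2 fold change 0.86, limma adjusted p = 0.252), also without overlap. Ribosomal protein L13a, the most abundant of the large subunit, stood at 1550 ± 88.1 and 1430 ± 255 TPM (TRINITY_DN29370_c0_g1, log2 fold change -0.13). The ribosomal protein S20 stood at 9.77, 9.53 and 7.74 TPM in control and 4.62, 4.04 and 4.25 TPM at day 1 (TRINITY_DN3714_c0_g1, limma adjusted p = 0.378). Protein L18a of the large subunit stood at 542, 392 and 394 TPM and 359.6, 359.8 and 262 TPM (TRINITY_DN30644_c0_g1, limma adjusted p = 0.549). The mitochondrial ribosomal protein L22 stood at 56.7, 30.4 and 30.7 TPM and 22.8, 30.3 and 20.04 TPM (TRINITY_DN30872_c0_g1, limma adjusted p = 0.509). These 3 ribosomal genes were lower in every day 1 library than in every control library.

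Cytoskeletal lists held the called tubulins. Of 42 tubulin genes 2 were called lower and 0 higher, and the median was -0.32 (-0.45 to -0.11 over the alternative settings). Members with a flatworm hit numbered 9, with a median of -0.18 and 0 called. The largest fall in value among members of at least 5 TPM was that of a beta-tubulin with a ciliate Swiss-Prot hit, at 19.9, 15 and 14 TPM in control and 7.1, 5.91 and 4.51 TPM at day 1 (TRINITY_DN34708_c0_g5, log2 fold change -1.34, SE 0.31, limma adjusted p = 0.128). The most abundant tubulin, a neural alpha-tubulin, stood at 2054, 1475 and 1075 TPM in control and 1540.0, 1351 and 1136 TPM at day 1 (TRINITY_DN34008_c1_g1), which overlap. Motile cilia and intraflagellar transport, the machinery by which planarians glide, had a median of -0.22 over 110 members with 1 called, centrin-2. Another gene with a centrin-2 hit, and a ciliate caltractin as its Swiss-Prot hit, stood at 88.6, 61.1 and 45.4 TPM in control and 24, 26.5 and 14.7 TPM at day 1 without overlap (TRINITY_DN16790_c0_g1, log2 fold change -1.53, SE 0.56, limma adjusted p = 0.448). A dynein light chain, the most abundant gene of this list, stood at 1210 ± 119 and 1160 ± 107 TPM (TRINITY_DN34247_c0_g1). Muscle and actomyosin had a median of -0.16 over 116 members and 0 called. An actin gene of this list stood at 1583, 1036 and 1275 TPM in control and 836, 816 and 662 TPM at day 1, without overlap (TRINITY_DN37839_c2_g4, log2 fold change -0.74, limma adjusted p = 0.255). The actin with the highest level, the beta-actin TRINITY_DN36831_c0_g3, had a log2 fold change of -0.11.

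Detoxification and antioxidant genes had values in both directions, with 0 called. Antioxidant and glutathione enzymes had a median of -0.11 over 77 members, with unadjusted p under 0.05 for 5 higher (6.49%) and 7 lower (9.09%). A glutathione S-transferase of class Mu, which conjugates foreign compounds to glutathione, stood at 16.3, 10.8 and 9.66 TPM in control and 38.3, 39.4 and 23.4 TPM at day 1 (TRINITY_DN42481_c0_g1, log2 fold change 1.39, SE 0.35, limma adjusted p = 0.188). Another transferase stood at 88.7, 91.9 and 76.9 TPM and 62.5, 57.7 and 39.96 TPM (TRINITY_DN34449_c0_g2, log2 fold change -0.70, limma adjusted p = 0.297). Neither passed the test, and the groups did not overlap for either. Catalase, which breaks down hydrogen peroxide and was chosen after its values were seen, stood at 26.3, 25.6 and 21.1 TPM and 35.6, 51.8 and 36.7 TPM (TRINITY_DN36204_c0_g1, log2 fold change 0.73, limma adjusted p = 0.287). Peroxiredoxin-1 of Dugesia japonica, likewise chosen afterwards, stood at 81.5, 74 and 57.6 TPM and 45, 57.2 and 52.3 TPM (TRINITY_DN36413_c4_g2, log2 fold change -0.45, limma adjusted p = 0.49). The most abundant glutathione S-transferase had overlapping values of 1729, 2468 and 2199.6 TPM and 2465, 1631 and 961 TPM (TRINITY_DN37393_c1_g6).

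Cytochrome P450 enzymes, transferases and ABC transporters, which modify and export foreign compounds, had a median of -0.19 over 95 members. The transporter ABC B1, like the human multidrug resistance protein, stood at 14.7, 11.3 and 10.7 TPM in control and 6.04, 7.52 and 4.8 TPM at day 1 (TRINITY_DN38029_c1_g4, log2 fold change -0.90, limma adjusted p = 0.214). Metal-binding genes and ferritins had a median of -0.21 over 50 members. A ferritin heavy chain, which stores iron, stood at 99.7, 93 and 79.4 TPM and 48, 75.1 and 60.6 TPM (TRINITY_DN35717_c1_g2, limma adjusted p = 0.459). Neither gene passed the test, and both were chosen among members whose groups did not overlap.

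Cell death and immune lists each held at most 1 called gene. Cell death regulators had a median of -0.11 over 58 members, with the lifeguard-like gene called higher. Another gene of this kind, a Bax inhibitor chosen after its values were seen, stood at 3.7, 4.85 and 4.72 TPM in control and 12, 12.1 and 9.18 TPM at day 1 (TRINITY_DN33970_c1_g1, log2 fold change 1.15, limma adjusted p = 0.127). The planarian bcl2-3, the most abundant member, stood at 87.7, 90.9 and 73.9 TPM and 82.2, 98.4 and 70.5 TPM (TRINITY_DN29547_c0_g1), which overlap. TNF receptor-associated factors and TNF signalling had a median of -0.17 over 183 members, with 1 called higher. A further gene, with hits to TNF receptor-associated factors 3 and 6, lay the other way, at 15.3, 19.1 and 22 TPM in control and 11.9, 9.13 and 6.82 TPM at day 1 (TRINITY_DN38564_c0_g1, log2 fold change -0.96, limma adjusted p = 0.107). Innate immune receptors and effectors had a median of -0.11 over 54 members, with 0 called. Its most abundant member, like a lysosomal thiol reductase induced by interferon in mammals, stood at 126 ± 26.8 and 108 ± 26.6 TPM (TRINITY_DN35836_c1_g7). MAP kinase, PI3K-TOR and insulin signalling had a median of -0.21 over 198 members, with the kinase above called lower.

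Cathepsins and legumain, the lysosomal proteases, had a median of 0.05 over 37 members, the highest among lists of 20 or more members and equal to that of the 12 genes of carbonic anhydrase and protonephridial transport. It ran from -0.10 to 0.24 over the alternative settings, so its sign was not fixed. A single member was called, and 7 higher (18.9%) and 1 lower (2.7%) had an unadjusted p under 0.05. The genes given next were chosen after their values were seen. TRINITY_DN35518_c0_g1, a cathepsin L with a ciliate Swiss-Prot hit, stood at 46.7, 47.5 and 39 TPM in control and 132, 106 and 82.8 TPM at day 1 (log2 fold change 1.23, SE 0.26, limma adjusted p = 0.0806). TRINITY_DN35444_c1_g5, with a plant Swiss-Prot hit, stood at 1.56, 0.8 and 1.11 TPM and 7.88, 6.13 and 4.98 TPM and lay just outside the threshold (log2 fold change 1.76, limma adjusted p = 0.05). TRINITY_DN31769_c2_g9 stood at 4.35, 2.88 and 2.94 TPM and 10.1, 9.74 and 7.45 TPM (limma adjusted p = 0.161). In all of these the day 1 libraries were above the control libraries, and day 1 replicate 3 was the lowest of them. A cathepsin B stood at 4.7, 3.57 and 2.56 TPM and 10.4, 8.65 and 7.1 TPM (TRINITY_DN13162_c0_g1, limma adjusted p = 0.355). The most abundant cathepsin L stood at 283, 597 and 315 TPM and 364, 671 and 292 TPM, which overlap (TRINITY_DN37922_c0_g1).

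Neighbouring lists of lysosomes and traffic had medians near 0. Autophagy and lysosome membrane genes had -0.06 over 49 members, with 5 higher (10.2%) and 0 lower at an unadjusted p under 0.05 and 0 called. The small GTPases of vesicle traffic had -0.07 over 188 members, with 10 higher (5.32%, near the 4.03% of all genes) and 1 lower (0.532%) at that level and 1 called, the ADP-ribosylation factor. A Rab chosen after its values were seen stood at 0.88, 0.91 and 0.36 TPM in control and 6.45, 4.97 and 2.31 TPM at day 1 (TRINITY_DN4802_c0_g1, log2 fold change 1.64, limma adjusted p = 0.0551). ER folding and secretory pathway genes had -0.06 over 50 members and 0 called. Sec61 alpha, the channel into the endoplasmic reticulum, stood at 226 ± 21.3 TPM in control and 236 ± 35.2 TPM at day 1 (TRINITY_DN35319_c1_g1). The receptor subunit alpha of the signal recognition particle, which docks ribosomes there, stood at 46.8, 33.5 and 36.2 TPM and 25.5, 30.2 and 21.2 TPM (TRINITY_DN38191_c0_g4, limma adjusted p = 0.481). An ATG8-like gene, whose protein coats autophagosomes, stood at 2.84, 4.2 and 2.47 TPM and 10.6, 6.74 and 7.23 TPM (TRINITY_DN12706_c0_g1, Swiss-Prot hit from a plant, limma adjusted p = 0.254).

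Energy and lipid metabolism gave 0 calls. Nuclear genes of oxidative phosphorylation had a median of -0.01 over 95 members, and 85.3% of them had an interval within 1 of 0 on the log2 scale. Mitochondrially encoded respiratory genes had -0.07 over 41 members, among which 8 had a bovid hit. The most abundant of them, cytochrome c oxidase subunit 1 with a bovid hit, stood at 235 ± 18.2 and 245 ± 45.2 TPM (TRINITY_DN37867_c0_g10). A subunit of NADH dehydrogenase, the first complex of the nuclear list, stood at 21.8, 27.6 and 41.6 TPM in control and 50.5, 57.6 and 62.5 TPM at day 1 without overlap (TRINITY_DN34220_c4_g1, log2 fold change 0.93, limma adjusted p = 0.458). Glycolysis and citric acid cycle enzymes had -0.12 over 104 members, and fatty acid and lipid metabolism -0.08 over 181. Succinyl-CoA:3-ketoacid coenzyme A transferase, which lets cells burn ketone bodies, stood at 97.5, 52.1 and 51.1 TPM in control and 39.1, 44.2 and 36.5 TPM at day 1 (TRINITY_DN36533_c1_g2, limma adjusted p = 0.464). Sphingosine-1-phosphate lyase stood at 12.4, 11.1 and 10.02 TPM and 6.33, 7.62 and 5.88 TPM (TRINITY_DN34015_c4_g1, limma adjusted p = 0.337). Digestive peptidases, lipases and glycosidases had -0.13 over 136 members. Prosaposin, the precursor of lysosomal lipid-binding proteins, stood at 43.3, 18.7 and 23.1 TPM and 8.65, 13.1 and 8.15 TPM (TRINITY_DN35982_c0_g6, log2 fold change -1.36, limma adjusted p = 0.0806), with control replicate 1 the highest.

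Neural, patterning and transport lists had medians between -0.10 and 0.05 and 0 calls. They were -0.03 for 114 neurotransmitter receptor, cholinergic and GPCR genes, -0.06 for 102 synaptic vesicle and neuropeptide genes, -0.10 for 161 ion channels and pumps, -0.04 for 81 Wnt, BMP, Hedgehog, FGF and Notch genes and -0.10 for 205 transcription factors. Solute carriers and aquaporins had -0.09 over 340 members, and the 12 genes of carbonic anhydrase and protonephridial transport, the excretory system, 0.05. The homolog of RFX4, of a transcription factor family that drives cilia genes, stood at 15.8, 12.9 and 14.9 TPM in control and 7.58, 11.8 and 5.09 TPM at day 1 (TRINITY_DN33200_c1_g1, limma adjusted p = 0.483). GPCPD1, a glycerophosphocholine phosphodiesterase kept by the wording of the cholinergic list, stood at 9.5, 6.27 and 6.67 TPM and 3.46, 3.72 and 4.08 TPM (TRINITY_DN38294_c0_g2, limma adjusted p = 0.341). In both all control libraries were above all day 1 libraries. The peptide prohormone-9 stood at 4.35, 3.15 and 4.4 TPM and 6.56, 9.15 and 7.6 TPM (TRINITY_DN37880_c3_g7, limma adjusted p = 0.545). Neuropeptide precursor-2, the most abundant peptide gene, stood at 494, 329 and 259 TPM in control and 317, 424 and 267 TPM at day 1 (TRINITY_DN33378_c0_g5), which overlap. A sodium pump subunit stood at 21.1, 11 and 10.1 TPM and 6.36, 7.76 and 5.85 TPM (TRINITY_DN35446_c2_g3, limma adjusted p = 0.353). The transporter slc42a-1 stood at 28.8, 14.2 and 15.8 TPM and 10.8, 11 and 11.4 TPM (TRINITY_DN37754_c1_g1, limma adjusted p = 0.501). Carbonic anhydrase, which interconverts carbon dioxide and bicarbonate, stood at 38.8 ± 2.93 and 33.7 ± 5.79 TPM (TRINITY_DN31141_c0_g1). Collagen, matrix and adhesion genes had -0.10 over 132 members, and retrotransposons and DNA transposons 0.00 over 264. A fibrillin-like gene, the most abundant of the matrix list, stood at 1417, 2892 and 1337 TPM and 2168, 2438 and 2136 TPM (TRINITY_DN35400_c0_g3), with control replicate 2 the highest library. A mariner transposase stood at 15.2, 8.66 and 9.18 TPM and 5.01, 8.08 and 5 TPM (TRINITY_DN39177_c2_g2, limma adjusted p = 0.41). Pathways of the deposited KEGG annotation describe the same libraries and tested genes, so they are no separate evidence beside the lists. Of 185 pathways with at least 20 tested genes 177 had a median below 0. Over all tested genes with a pathway the median was -0.15. DNA replication was lowest at -0.38 (38 genes), then homologous recombination at -0.33 (23 genes) and the proteasome at -0.31 (52 genes).

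Hits to organisms other than planarians were examined as a property of the transcripts. Of 72 tested genes whose best Swiss-Prot hit was a ciliate protein, 62 (86.1%) had values below 0, against 57.9% of all tested genes. Their median was -0.58 against -0.08 over all genes, and it ran from -0.72 to -0.39 over the alternative settings. The groups did not overlap for 35 of them lower (48.6%) and 6 higher (8.33%), against 7.71% and 5.65% of all genes. A single one of them was called, the cathepsin L, which was higher. All 38 ribosomal proteins of this class had values below 0 (median -0.59), and their summed TPM was 307, 244 and 231 in control and 206, 198 and 120 at day 1, without overlap. The 37 cytosolic ribosomal proteins with flatworm hits had a median of -0.24 and sums of 21500, 18400 and 16900 TPM in control and 17700, 17100 and 14100 TPM at day 1, which overlap. The 5 centrins and caltractins of the ciliate class had a median of -1.30, and they summed to 130, 91.6 and 78.1 TPM in control and 37, 39.6 and 27.2 TPM at day 1, without overlap. The histones of this class numbered 10, with 9 below 0 and a median of -0.68. At the other end lay a macronuclear-type actin, at 5.39, 4.51 and 4.2 TPM in control and 23.6, 24 and 12.1 TPM at day 1 (TRINITY_DN21497_c0_g2, log2 fold change 1.82, limma adjusted p = 0.0806), and the 2 cathepsin L genes. Ciliate-hit genes as a whole summed to 1230, 888 and 886 TPM in control and 922, 860 and 616 TPM at day 1, which overlap. If these transcripts share a source they do not vary independently, and which organism made them was not tested. Bovid-hit genes, 51 in all, had a median of -0.05 and 0 called, and their sums overlapped (37800, 15100 and 15500 TPM in control, 33600, 25900 and 30000 TPM at day 1). The 9 tested genes of a list worded to catch vertebrate food proteins had a median of -0.33 and 0 called. The median ran from -0.48 to 0.18 over the alternative settings, and 2 of the genes had a bovid hit. Whether any of these genes came from food was not tested. The most abundant of these was like a bacterial truncated hemoglobin and stood at 12.9 ± 3.06 and 20.5 ± 7.6 TPM (TRINITY_DN36834_c2_g1).

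Among single libraries left out, control replicate 2 moved the count of called genes furthest in number. Leaving out control replicate 1 or day 1 replicate 2 lowered the count to 15, and it was 8 without both. Leaving out control replicate 2 raised the count of called genes from 36 to 89, of which 27 were called with all libraries too. The 62 others comprised 55 higher and 7 lower genes. In 43 of the 55 control replicate 2 was at or above the lowest day 1 library, which describes the genes and tests nothing, since a high value in the library left out is part of how they were chosen. In 53 of the 55 control replicates 1 and 3 were below all 9 exposed libraries. Low values in these control libraries are part of how the genes were chosen, and all 3 times share them. The count is thus no support for a rise, and its share over all genes was not counted. Of the 55 genes 42 had no hit, 11 had a flatworm hit and 2 another hit. The genes given next were chosen after their values were seen, and none passed the test with all libraries. Passing the test without control replicate 2 is how this set was defined. Small adjusted p-values from that fit therefore describe the choice and are no support for a rise.

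Ast1, with a hit to the astacins, zinc proteases that are commonly secreted, stood at 25, 224 and 24.2 TPM in control and at 159, 189 and 134 TPM at day 1 (TRINITY_DN34810_c0_g3). The level in control replicate 2 was above every day 1 library, while replicates 1 and 3 were far below, so with all libraries the log2 fold change was 1.60 (SE 0.57, limma adjusted p = 0.42). Without control replicate 2 it was 2.65 (limma adjusted p = 0.000382). Ast6 stood at 109, 621 and 112 TPM in control and 568, 737 and 414 TPM at day 1 (TRINITY_DN34328_c1_g1), with 1.5 and 2.32 on the log2 scale with and without that library (limma adjusted p = 0.341 and 0.000664). Ast4, the most abundant member of the patterning list by its hit to bone morphogenetic protein 1, stood at 67.2, 398 and 57.6 TPM and 305, 417 and 238 TPM (TRINITY_DN34638_c1_g1), with 1.42 and 2.31 (limma adjusted p = 0.428 and 0.000989). The matrix metalloproteinase mmp1, of a family that cleaves extracellular matrix, stood at 33.8, 106 and 34.7 TPM and 119, 141 and 93.4 TPM (TRINITY_DN36780_c0_g3), with 1.20 and 1.73 (limma adjusted p = 0.28 and 0.00243). In each of these genes control replicates 1 and 3 were close to each other, which the choice by the fit without control replicate 2 favours. Genes with hits to astacins, tolloids or matrix metalloproteinases were not 1 of the 43 gene lists. They were grouped after some of them were seen in this set, so their counts and medians are no support for a rise. Of the 19 tested ones 0 were called with all libraries and 6 without control replicate 2, when 89 genes were called in all. Their median log2 fold change was 0.40 with all libraries and 0.60 without control replicate 2. Not all of them had this pattern, as Ast8 stood at 62, 80.8 and 136 TPM in control and 107, 46.8 and 44 TPM at day 1 (TRINITY_DN38870_c2_g1).

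Further genes of this set are given with the same values. TCEN, named in planarians for a protein of the central body region, stood at 389, 1422 and 312 TPM in control and 1543, 1607 and 1099.6 TPM at day 1 (TRINITY_DN23309_c0_g1), with log2 fold changes of 1.33 and 2.00 with and without control replicate 2 (limma adjusted p = 0.315 and 0.00065). Its levels at days 3 and 5 were 980.1 to 1293 TPM, near those of day 1. A gene like venom allergen, of the CAP family of secreted proteins, stood at 99.4, 409 and 90.7 TPM and 442, 511 and 286 TPM (TRINITY_DN38708_c3_g2), with 1.37 and 2.07 (limma adjusted p = 0.328 and 0.00105). Among genes of this set without a hit, TRINITY_DN1982_c0_g1 stood at 882, 3814 and 764 TPM and 3885, 3938 and 2814 TPM. Its control replicate 2 lay within the range of day 1, as for TCEN it lay between the lowest and the highest day 1 library. Whether control replicate 2 or the other 2 control libraries differ from unexposed worms in general cannot be told apart with 3 libraries.

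**Figure D5:**
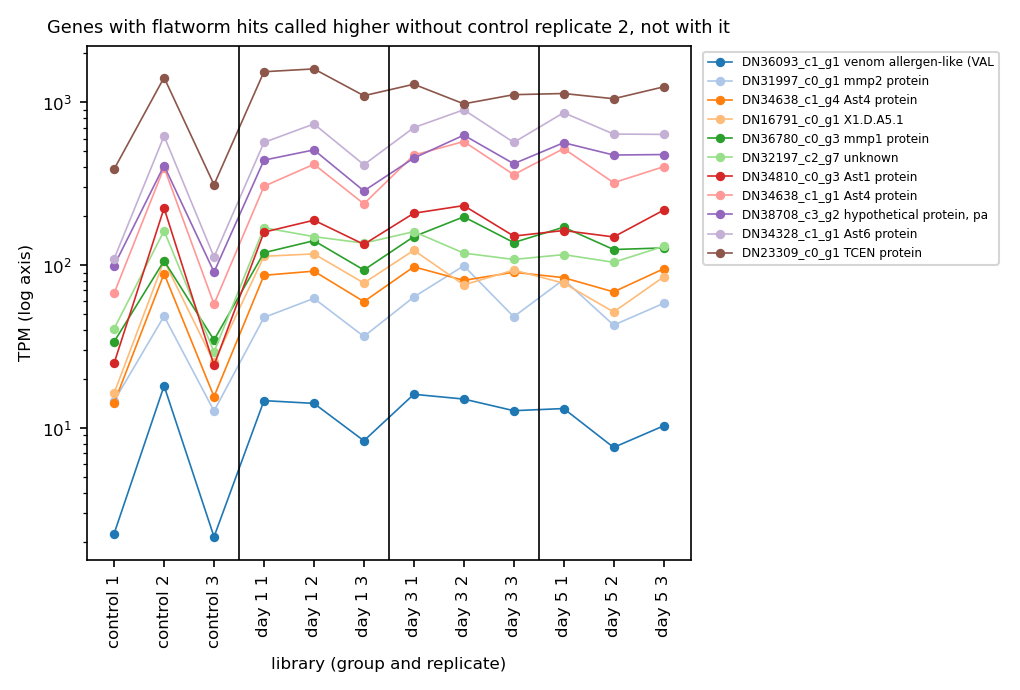
TPM (log axis) of the 11 genes with a flatworm hit that were called higher without control replicate 2 but not with it, in the 12 libraries; lines join the values of 1 gene. Control replicates 1 and 3 lie lowest, while control replicate 2 lies at the level of the 9 exposed libraries. The choice of these genes favours this pattern.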

How the data were processed

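RNA abundance of whole Dugesia japonica was measured in 12 libraries, 3 each of unexposed worms and of worms after 1, 3 and 5 days in glyphosate. The authors deposited 1 table with a value per gene and library, taken as TPM because all libraries sum to nearly the same total and Salmon, per the submitters' processing notes, reports TPM; the header does not name the unit. The same notes name cutadapt, FastQC, Salmon and edgeR without versions, and how the transcripts were assembled and annotated is not stated there. TPM keeps no depth, so no counting intervals could be given.

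Gene lengths, annotation hits and KEGG pathways came from the same table, in which 12425 genes had an annotation hit and 9375 a Swiss-Prot hit. Genes were tested at 1 TPM or more in at least 3 of 12 libraries. A fold change is a difference of log2(TPM + 1), with a pseudocount of 1. limma 3.58.1 in R 4.3.3 fitted the 4 groups over all 12 libraries with an intensity trend and no block, adjusting over all 27329 tested genes by Benjamini-Hochberg. Whole-library values and cluster sums were compared by two-sided exact permutation tests. The procedure was tested on simulated data.

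Named genes were every called gene (those with at least 5 TPM or a protein hit by library), the most abundant member of each list, the largest non-overlapping rise and fall in each list with an unadjusted p under 0.05, and the largest rise and fall at 100 TPM or more. The members and lists were chosen with earlier results of these data known, and the wording of several lists was corrected after the files were seen. A class by organism was defined from the genus of either the annotation hit or the Swiss-Prot hit, depending on the class. The flatworm class came from the annotation hit and the ciliate class from the Swiss-Prot hit, and bovids stand where vertebrates were planned. Alternatives changed scaling, filter, trend, pseudocount, the libraries fitted, the block and each library in turn.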

Additional observations from a re-analysis of the deposited data

How the results depend on the processing

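Of the 36 called genes 6 kept the call in every alternative that gave them a value, 0 reversed, and the others lost it in 1 to 16 of 24 alternatives. Against 23 higher and 13 lower genes (36 in all, 63.9% higher), quantile normalization gave 50 and 23 (73), median-ratio scaling 58 and 23 (81), a minimum of 5 TPM 16 and 7 (23), no intensity trend 17 and 21 (44.7% higher), a pseudocount of 0.1 32 and 5 (86.5% higher), only the 6 libraries compared 10 and 5 (15), and only flatworm-hit genes 3 and 0 (3). The fit without the pair of libraries of highest median, added after seeing the data, gave 7 and 1 (8, 87.5% higher). Leaving out 1 library at a time gave 9 to 74 higher, 4 to 23 lower and 15 to 89 in all, with the extremes at control replicate 2 (89), control replicate 1 (15) and day 1 replicate 2 (15). The replicate block gave 14 and 9 (23), but same-numbered libraries did not deviate together (correlations of -0.0106, 0.0026 and 0.0235), so the numbers were not taken to pair the libraries.

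Non-overlapping genes numbered 1545 higher and 2106 lower. The higher ones were 2400 under quantile normalization, 2530 under median-ratio scaling and 442 at a minimum of 5 TPM, and the lower ones 3213 when the 2 most abundant transcripts were taken out of the scaling and 856 at a minimum of 5 TPM, where fewer genes are tested. For the other settings the cause was not tested. The median of all genes ran from -0.18 to 0.02, and of 960 list and class medians 3 moved beyond the spread between libraries. Of 118 named genes that were not called, 27 were called in some alternative. Low genes limit precision most, with a median SE of 0.425 under 2 TPM and 0.214 at 100 TPM or more.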

Other observations

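Genes with an annotation hit to Dugesia japonica itself, the least ambiguous host genes, numbered 345 among those tested. The 2 small heat shock genes were the called ones among them, 0 were lower, and their median log2 fold change was -0.15. Their 95% intervals lay within 1 of 0 on the log2 scale for 72.8%, against 47.5% of all tested genes.

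Among KEGG pathways with at least 20 tested genes, 4 had a median above 0. The AMPK pathway had 0.10 over 21 genes. Lysosome had -0.03 over 197 genes, with 1 called higher, and with 11 higher (5.58%) and 4 lower (2.03%) at an unadjusted p under 0.05, against 4.03% and 4.8% of all tested genes. Oxidative phosphorylation had -0.05 over 162 genes, and ribosome -0.22 over 379 genes.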
